A study of Mus musculus with 8 samples.

Results

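The zinc genes of pancreatic beta cells were followed in 8 RNA sequencing libraries. The group was fixed by name and holds 10 of the 55487 genes in the deposited tables: the zinc exporters and vesicle loaders Slc30a8, Slc30a1, Slc30a4, Slc30a5, Slc30a6, Slc30a7 and Slc30a9, the importer Slc39a14, and the metallothioneins Mt1 and Mt2. Each Ensembl identifier was matched to its symbol in GENCODE M21. Chd4KO mice, 4 in number, had lost the chromatin remodelling helicase Chd4 in beta cells, and 4 Control mice were the comparison. Mice of both genotypes had received tamoxifen, and beta cells were flow-sorted from their dispersed islets. The Cre driver, the alleles, and the age and sex of the mice are not given in the sources used here. Animal numbers in the labels are lower for every Control mouse than for every Chd4KO mouse, and whatever they mark cannot be told apart from genotype.

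Beta cells hold much zinc because insulin is stored in their granules as zinc-bound crystals. Proteins of the Slc30 (ZnT) family carry zinc out of the cytosol, either across the plasma membrane or into vesicles, and proteins of the Slc39 (ZIP) family carry it in. Metallothioneins are small cysteine-rich proteins that bind zinc and copper in the cytosol. The zinc-sensing transcription factor Mtf1 switches on Mt1, Mt2 and Slc30a1 through short DNA motifs called metal response elements.

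The promoters of these 3 Mtf1 targets are shown here. Mt1 and Mt2 varied together across the libraries, and whether these motifs have a part in that was not tested. The windows run from 250 bases before to 50 bases after the RefSeq gene start (GRCm38.p6, plus strand in all 3), and capitals mark each match to the core of the metal response element, searched as TGCACNC and TGCGCNC on both strands.
Mt1, chr8:94178839-94179138: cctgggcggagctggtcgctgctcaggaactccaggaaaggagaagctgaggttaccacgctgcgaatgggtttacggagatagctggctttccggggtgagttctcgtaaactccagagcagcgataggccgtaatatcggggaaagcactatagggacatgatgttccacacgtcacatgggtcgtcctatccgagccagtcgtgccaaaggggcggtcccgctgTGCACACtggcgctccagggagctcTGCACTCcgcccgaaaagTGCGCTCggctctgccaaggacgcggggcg
Mt2, chr8:94172368-94172667: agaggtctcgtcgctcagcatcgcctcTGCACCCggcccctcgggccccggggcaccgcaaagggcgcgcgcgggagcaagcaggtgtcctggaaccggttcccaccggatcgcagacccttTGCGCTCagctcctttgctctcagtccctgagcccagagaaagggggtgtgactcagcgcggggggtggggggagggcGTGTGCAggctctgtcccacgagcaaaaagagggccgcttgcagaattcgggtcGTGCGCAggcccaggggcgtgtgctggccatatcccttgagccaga
Slc30a1, chr1:191906531-191906830: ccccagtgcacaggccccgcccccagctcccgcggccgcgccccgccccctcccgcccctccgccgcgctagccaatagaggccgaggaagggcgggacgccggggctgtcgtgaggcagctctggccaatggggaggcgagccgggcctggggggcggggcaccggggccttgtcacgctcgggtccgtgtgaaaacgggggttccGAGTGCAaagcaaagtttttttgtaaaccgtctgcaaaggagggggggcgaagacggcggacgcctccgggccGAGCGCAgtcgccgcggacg

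The Mt1 window held 3 matches, all on the plus strand. The Mt2 window held 4, with 2 on each strand, and the Slc30a1 window held 2, both on the minus strand. No match overlapped another in these windows. Of 32851 promoter windows of this length, 25.7% held at least 1 match, 7.11% at least 2, 1.97% at least 3 and 0.517% at least 4. The table held windows for 8 of the 10 genes, with 3 matches in that of Slc30a4, 1 in that of Slc30a5 and none in those of Slc30a6, Slc30a7 and Slc30a9. A match describes the letters of the window and is not evidence of binding.

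Levels are given in TPM, a length-corrected transcript abundance scaled to the same total in every library. The depth, worked back from TPM with exon lengths, lay between 14928000 and 20164000 reads in Chd4KO libraries and between 16393000 and 41014000 reads in Control libraries, to the nearest 1000. Chd4 itself was at 8.38, 6.18, 5.27 and 2.59 TPM in Chd4KO replicates 1 to 4, and at 15.98, 13.4, 11.1 and 12.3 TPM in Control replicates 1 to 4. The groups did not overlap, and the difference for Chd4 was -1.18 ± 0.29 on the log2 scale (SE, adjusted p = 0.0725 with limma). Chd4 passed the threshold under 7 of 19 alternatives. Of 9 markers of beta cell identity, all were detected, and together they made up 395918 to 652350 TPM in Chd4KO libraries and 429361 to 468620 TPM in Control libraries. Ins1, Ins2 and Iapp made up most of this sum. These 3 had positive log2 changes and the other 6 had negative ones. Of these 9 markers 2 passed the limma test (adjusted p under 0.05), Mafa and Slc2a2, both lower in Chd4KO, beside 2.97% of all genes tested. At an unadjusted p under 0.05 the count was 5 of the 9, all lower in Chd4KO, beside 16.2% of all genes tested. The groups did not overlap for 4 of the 9, all lower in Chd4KO, beside 14.8% of all genes tested. Among markers of other cell types, the leukocyte genes Cd68 and Fcer1g (2 of 7 tested) and Rbp4 of the delta and PP cell list (1 of 4) passed as higher in Chd4KO, and the ductal gene Cftr (1 of 4) passed as lower. Of the 4 tested delta and PP genes 3 had a negative log2 change. Among the 7 tested leukocyte genes 4 had a positive and 3 a negative change, and among the 4 tested ductal genes 2 went each way. Ductal markers summed to 23.9 to 154 TPM in Chd4KO and 43.2 to 69.6 TPM in Control, which overlap. Delta and PP markers summed to 2353 to 4370 TPM in Chd4KO and 1929 to 4012 TPM in Control, which overlap. Leukocyte markers summed to 116 to 234 TPM in Chd4KO and 129.6 to 165 TPM in Control, which overlap. Endothelial markers summed to 6.38 to 9.54 TPM in Chd4KO and 5.58 to 6.09 TPM in Control, without overlap. Of the 7 endothelial markers 2 were tested, 1 higher and 1 lower in Chd4KO, and neither passed. Mesenchymal markers summed to 0.740 to 1.49 TPM in Chd4KO and 0.148 to 0.554 TPM in Control, also without overlap. None of the 7 mesenchymal markers reached 1 TPM in any library, and none was tested. The part of these cells in the differences of the zinc genes was not tested. In Chd4KO replicate 4 the insulin genes Ins1 and Ins2 took 62.0% of TPM, against 32.4 to 47.0% in the other Chd4KO libraries and 38.1 to 41.8% in Control libraries. That library also had the fewest genes at 1 TPM or more, 12702, and the lowest TPM of 9 of the 10 zinc genes. With scaling by the median of ratios, which does not let insulin set the scale, it was lowest for 5 of the 10. In Chd4KO replicate 2 the 15 acinar markers summed to 39698 TPM, against 2.63 to 225 TPM in the other Chd4KO libraries and 9.23 to 1576 TPM in Control libraries.

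None of the 10 genes passed the test between genotypes, and the means of 8 lay lower in Chd4KO on the log2 scale. The test was limma on log2(TPM + 1) over the 15189 genes with at least 1 TPM in at least 4 libraries, with Benjamini-Hochberg adjustment and a threshold of 0.05. All 10 genes entered it. Over all genes tested 451 passed (2.97%). At an unadjusted p under 0.05 the count was 1 of the 10, Slc30a8, beside 16.2% of all genes tested. The groups did not overlap for 1 of the 10, again Slc30a8, beside 14.8% of all genes tested. The median change of the 10 genes was -0.43 (log2), and that of all genes tested was -0.25, or -0.02 with scaling by the median of ratios. With limma's voom on the recovered reads none of the 10 passed either. In sorted bulk cells, fewer cells of a type and less RNA per cell cannot be told apart.

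**Figure D1:**
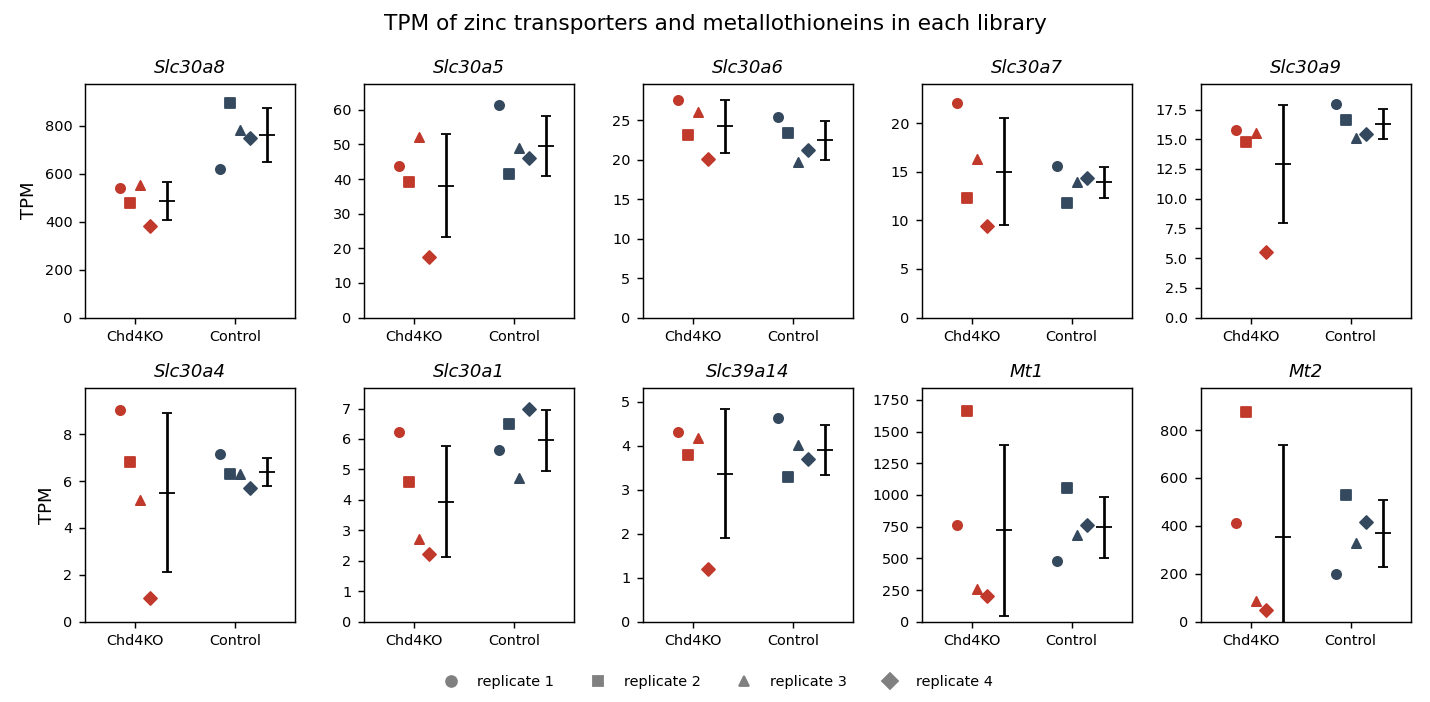
TPM of the 10 zinc genes (vertical axes, linear, from 0) in 4 Chd4KO libraries (red, left) and 4 Control libraries (dark, right). Marker shape gives the replicate, and black bars give mean and SD. The lower bar of Mt2 in Chd4KO would reach below 0 and ends at the axis. For Slc30a8 all 4 Chd4KO values lie below all Control values, while the groups overlap for the other 9 genes.

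Slc30a8 encodes ZnT8, which loads zinc into insulin granules and whose common variants are linked to type 2 diabetes risk in people. Slc30a8 (ENSMUSG00000022315, mm10 chromosome 15, 52295553 to 52335798) was at 540.4, 476, 551 and 380.0 TPM in Chd4KO replicates 1 to 4, and at 619.8, 894, 780.1 and 747 TPM in Control replicates 1 to 4. Every Chd4KO library lay below every Control library. The means were 487 ± 78.6 TPM in Chd4KO and 760.3 ± 113 TPM in Control (SD, n = 4 each), so the Chd4KO mean was 64.0% of the Control mean. The log2 change was -0.64 ± 0.20 (SE), with a 95% interval of -1.10 to -0.19, an unadjusted p of 0.0101 and a limma adjusted p of 0.152, outside the threshold. Relative to the median gene the change was -0.39.

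The gap between the genotypes depended on how libraries were scaled. With scaling by the median of ratios, which does not let insulin set the scale, Slc30a8 lay between 429 and 704 in Chd4KO and between 519 and 807 in Control, and the groups overlapped. Its log2 change was then -0.36 (limma adjusted p = 0.410). Chd4KO replicate 4, lowest in TPM, was highest of its group on that scale. Without that library the change in TPM was -0.53 (limma adjusted p = 0.101). Of 19 alternatives 1 put Slc30a8 past the threshold, limma with array weights, which gave Chd4KO replicate 4 a weight of 0.0863, the lowest of the 8 libraries (log2 change -0.56, adjusted p = 0.0459).

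Slc30a8 was also set against the cargo of the granules it serves. Per 10000 TPM of Ins1 and Ins2 there were 14.8, 14.7, 11.7 and 6.13 TPM of Slc30a8 in Chd4KO replicates 1 to 4. In Control replicates 1 to 4 there were 16.3, 22.3, 18.7 and 18.3 TPM. The means were 11.8 ± 4.07 in Chd4KO and 18.9 ± 2.51 in Control (SD, n = 4 each), without overlap between the groups (exact permutation p = 0.0286, two-sided, the smallest that 4 against 4 libraries allow). This ratio does not depend on the scaling of a library, but it is not independent of the TPM of Slc30a8, which already did not overlap. Several per-library measures were compared by this test without adjustment. The summed TPM of the Slc30 genes in the group also gave an exact permutation p of 0.0286. That sum is mostly Slc30a8, which made up at least 81.3% of it in every library. With Slc30a8 taken out of the sum, p was 0.543 by the same test. The mean was then 99.7 TPM in Chd4KO and 114 TPM in Control, and the groups overlapped. The share of all genes without overlap in such a ratio was not computed. The ratio was lowest in Chd4KO replicate 4. Without that library the difference was -5.13 in place of -7.04. Its exact permutation p was then 0.0571, the smallest that 3 against 4 libraries allow.

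**Figure D2:**
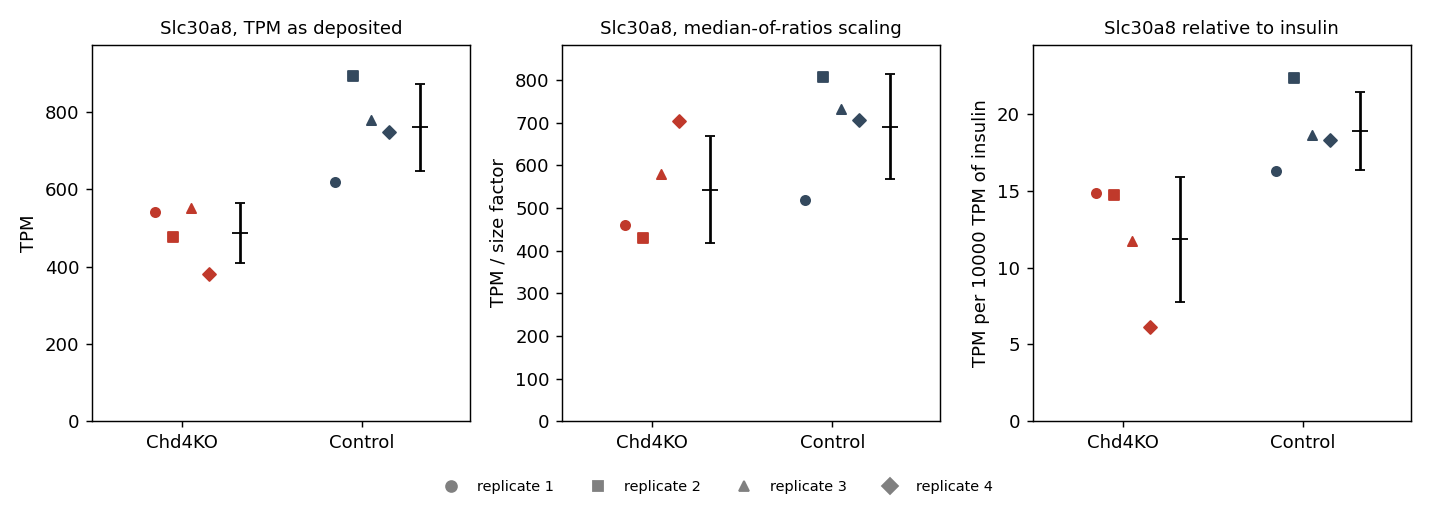
Slc30a8 in 4 Chd4KO libraries (red, left) and 4 Control libraries (dark, right) as deposited TPM, as TPM divided by a median-of-ratios size factor, and per 10000 TPM of Ins1 and Ins2, all from 0, with mean and SD in black. The groups do not overlap in the left and right panels and overlap in the middle one, where Chd4KO replicate 4 stands at 704.

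Slc30a8 dominated its family in both genotypes. It made up 81.3 to 87.2% of the summed TPM of the 7 Slc30 genes in Chd4KO and 82.3 to 89.4% in Control. By TPM it ranked between 74 and 145 among all genes in Chd4KO libraries and between 50 and 82 in Control libraries. The next most abundant Slc30 gene, Slc30a5, had 38.1 ± 14.8 TPM in Chd4KO and 49.5 ± 8.56 TPM in Control (SD, n = 4 each). Of the other 3 genes of the Slc30 family, Slc30a2, Slc30a3 and Slc30a10, none reached 1 TPM in any library.

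Slc30a5, Slc30a6 and Slc30a7 load zinc into the early secretory pathway, Slc30a5 and Slc30a6 as a heterodimer and Slc30a7 on its own. Slc30a5 (ENSMUSG00000021629) lies on chromosome 13 (100802648 to 100833427), Slc30a6 (ENSMUSG00000024069) on chromosome 17 (74395608 to 74424221) and Slc30a7 (ENSMUSG00000054414) on chromosome 3 (115938973 to 116007406). Slc30a5 was at 43.9, 39.2, 52.0 and 17.5 TPM in Chd4KO replicates 1 to 4, and at 61.5, 41.5, 48.9 and 46.2 TPM in Control replicates 1 to 4. Slc30a6 was at 27.5, 23.1, 26.1 and 20.04 TPM in Chd4KO and at 25.4, 23.4, 19.7 and 21.2 TPM in Control. The groups overlapped for both, and the low Slc30a5 value of Chd4KO replicate 4 had no counterpart in Slc30a6, whose value there lay within the Control range. The log2 changes were -0.46 ± 0.33 for Slc30a5 (95% interval -1.19 to 0.28) and 0.10 ± 0.18 for Slc30a6 (-0.30 to 0.51; SE, limma adjusted p = 0.487 and 0.764). Slc30a7 was at 22.1, 12.3, 16.3 and 9.45 TPM in Chd4KO and at 15.6, 11.8, 13.9 and 14.3 TPM in Control, so that Chd4KO libraries lay on both sides of all Control libraries. Its change was 0.05 ± 0.26 (limma adjusted p = 0.927). Pseudogenes Gm43106 and Gm6649 lie within its exons on the other strand, at 7.26 and 4.97 TPM in Chd4KO and 6.32 and 5.33 TPM in Control on average.

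Slc30a9 exports zinc from mitochondria, and Slc30a4 fills endosomes and secretory vesicles. Slc30a9 (ENSMUSG00000029221) lies on chromosome 5 (67306955 to 67358443) and Slc30a4 (ENSMUSG00000005802) on chromosome 2 (122681233 to 122702663). Slc30a9 was at 15.8, 14.8, 15.6 and 5.49 TPM in Chd4KO replicates 1 to 4, and at 17.9, 16.6, 15.1 and 15.4 TPM in Control replicates 1 to 4. Slc30a4 was at 9.01, 6.82, 5.18 and 1.001 TPM in Chd4KO and at 7.16, 6.32, 6.31 and 5.72 TPM in Control. In both genes Chd4KO replicate 4 stood below all other libraries and the other 3 overlapped Control. The changes were -0.41 ± 0.31 for Slc30a9 and -0.40 ± 0.44 for Slc30a4 (SE, limma adjusted p = 0.507 and 0.635). Without Chd4KO replicate 4 they came to -0.08 and 0.09.

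Slc30a1 is the exporter of the plasma membrane and Slc39a14 (ZIP14) an importer of zinc, manganese and iron. Slc30a1 (ENSMUSG00000037434) lies on chromosome 1 (191906767 to 191913247) and Slc39a14 (ENSMUSG00000022094) on chromosome 14 (70303469 to 70351425). Slc30a1 was at 6.24, 4.59, 2.72 and 2.24 TPM in Chd4KO replicates 1 to 4, and at 5.65, 6.49, 4.71 and 6.9999 TPM in Control replicates 1 to 4. Chd4KO replicates 2 to 4 lay below all Control libraries and replicate 1 lay among them. Its change was -0.56 ± 0.28 (SE, 95% interval -1.18 to 0.07, limma adjusted p = 0.357). Slc39a14 was at 4.30, 3.80, 4.18 and 1.19 TPM in Chd4KO and at 4.63, 3.29, 4.02 and 3.70 TPM in Control, with a change of -0.25 ± 0.30 (limma adjusted p = 0.660), or 0.06 without Chd4KO replicate 4. These 2 genes and Slc30a4 were the thinnest measured, with as few as 103, 149 and 65 reads in a library, while Slc30a8 had at least 6627. The antisense gene 1700034H15Rik shares 468 exonic bases with Slc30a1, and 4930417H01Rik on the other strand shares 130 with Slc30a4, so reads there cannot be assigned to a strand.

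**Figure D3:**
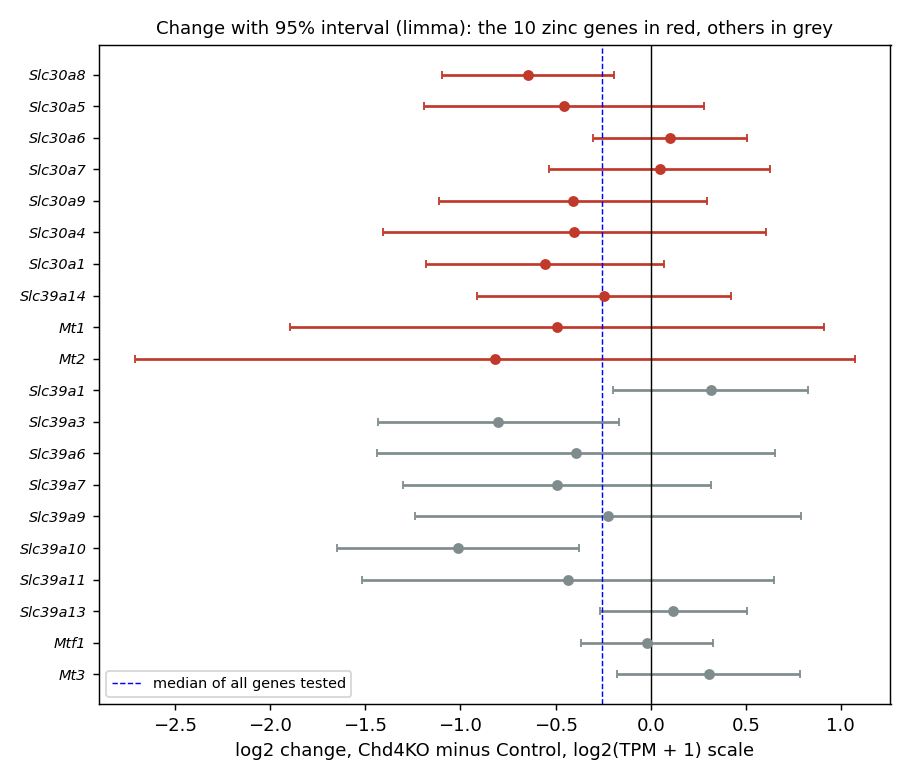
Log2 change of Chd4KO minus Control on the log2(TPM + 1) scale (horizontal axis) with its 95% interval from limma, for the 10 zinc genes (red) and for the tested Slc39 genes, Mtf1 and Mt3 (grey). The blue dashed line at -0.25 marks the median of all genes tested. The intervals of Slc30a8, Slc39a3 and Slc39a10 lie below 0, and none of these genes passed after adjustment.

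The metallothioneins were abundant and varied more between mice than any transporter in the group. Mt1 (ENSMUSG00000031765, mm10 chromosome 8, 94179082 to 94180327) was at 766, 1660.0, 259 and 203 TPM in Chd4KO replicates 1 to 4, and at 477, 1053, 681 and 766 TPM in Control replicates 1 to 4. Mt2 (ENSMUSG00000031762, chromosome 8, 94172664 to 94173568) was at 411, 876, 86.7 and 47.1 TPM in Chd4KO and at 201, 531, 330.3 and 415 TPM in Control. Within Chd4KO, replicate 2 was above and replicates 3 and 4 were below every Control library for both genes. The means nearly coincided, at 722 ± 675 TPM in Chd4KO and 744 ± 239 TPM in Control for Mt1 and at 355 ± 383 and 369 ± 139 TPM for Mt2 (Chd4KO and then Control in each pair, SD, n = 4 each). The log2 changes, -0.49 ± 0.62 and -0.82 ± 0.84, had 95% intervals of -1.89 to 0.91 and -2.71 to 1.07 (SE, limma adjusted p = 0.672 and 0.608). They rested on single libraries, being -1.06 and -1.54 without Chd4KO replicate 2 and -0.05 and -0.14 without Chd4KO replicate 4.

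The SD of Mt1 between mice on the log2(TPM + 1) scale was 1.41 in Chd4KO and 0.47 in Control, against medians over all genes tested of 0.51 in Chd4KO and 0.18 in Control. Mt2 had SDs of 1.94 in Chd4KO and 0.60 in Control. These values put Mt1 at the 97.7th percentile and Mt2 at the 99.4th percentile of all genes tested in Chd4KO, and at the 91.0th and the 94.5th in Control. Slc30a8 had an SD of 0.25 in Chd4KO, at the 15.5th percentile, and of 0.22 in Control, at the 60.9th.

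Both metallothionein genes, 5513 bases apart, ranked the 8 libraries in the same order. Pearson's r of their log2(TPM + 1) was 0.991 (exact permutation p = 2.48e-05, the smallest that orderings of 8 libraries allow) and Spearman's rho was 1 (exact permutation p = 4.96e-05). It was the only relation between 2 measures tested. Without Chd4KO replicates 3 and 4, the farthest from the median of Mt1, r was 0.989. The points share library, depth and TPM scaling. The ratio of Mt1 to Mt2 was 1.86, 1.896, 2.98 and 4.31 in Chd4KO replicates 1 to 4, and 2.38, 1.98, 2.06 and 1.85 in Control replicates 1 to 4. It was highest in Chd4KO replicates 3 and 4, where both genes were lowest (exact permutation p = 0.371 between genotypes). Of the 588 exonic bases of Mt2, 432 are also exonic in the antisense gene Gm45774, and these libraries do not mark strand. Gm45774 was at 104, 224, 21.99 and 10.8 TPM in Chd4KO and at 45.5, 133, 84.2 and 104 TPM in Control, and its reads cannot be told apart from those of Mt2.

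**Figure D4:**
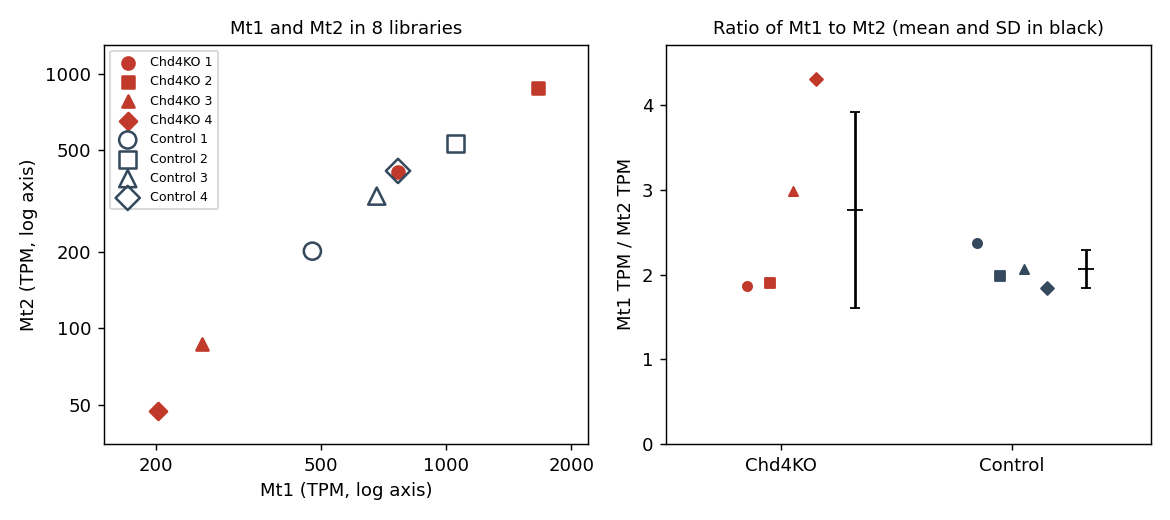
Left, Mt2 against Mt1 in TPM on log axes, with 4 Chd4KO libraries in filled red and 4 Control libraries in open dark markers. Right, the ratio of Mt1 to Mt2 from 0, with mean and SD in black. The 8 libraries fall along a line, Chd4KO libraries take both of its ends, Chd4KO replicate 1 and Control replicate 4 coincide, and the ratio reaches 4.31 in Chd4KO replicate 4.

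Mtf1, the sensor that drives these genes, had close means in TPM, at 15.7 ± 1.18 TPM in Chd4KO and 15.9 ± 0.376 TPM in Control (SD, n = 4 each), with a change of -0.02 ± 0.15 (limma adjusted p = 0.957) that turned positive under 7 of 19 alternatives. With scaling by the median of ratios it lay between 13.4 and 27.8 in Chd4KO and between 13.2 and 15.45 in Control. Mt3, the metallothionein of the brain, was at 1.71 ± 0.598 TPM in Chd4KO and 1.17 ± 0.331 TPM in Control (adjusted p = 0.480), and Mt4 was listed at 0 throughout. Metallothioneins also respond to glucocorticoids, oxidative stress and metals that induce heat shock genes, so lists of such genes were read beside them. None of 8 tested glucocorticoid-responsive genes passed (median change -0.29), none of 7 NRF2 targets (-0.21) and none of 7 heat shock genes (-0.22), with limma. None of the 22 had an unadjusted p under 0.05, and their medians lay near the -0.25 of all genes tested. In Chd4KO replicate 2, where Mt1 and Mt2 peaked, 7 of 9 glucocorticoid-responsive genes also had their highest value, among them Sgk1 at 42.4 TPM and Fkbp5 at 63.7 TPM, against 1.19 to 1.58 TPM of Sgk1 and 4.91 to 13.1 TPM of Fkbp5 in the other Chd4KO libraries. Control libraries had 1.55 to 5.44 TPM of Sgk1 and 11.2 to 16.2 TPM of Fkbp5. Zbtb16, among the 7, stayed under 1 TPM in every library and was not tested. Chd4KO replicate 2 also held the highest value of 3 of 7 heat shock genes and of 1 of 8 NRF2 targets. The share of all genes highest in that library was not computed. The acinar markers followed the metallothioneins over all 8 libraries. Their sums were 225, 39698, 5.72 and 2.63 TPM in Chd4KO replicates 1 to 4, and 9.23, 1576, 16.9 and 166 TPM in Control replicates 1 to 4. They ranked the libraries as Mt1 and Mt2 did, at the low end as well as the high end, except that Chd4KO replicate 1 and Control replicate 4, nearly tied in both genes, changed places. The part of acinar transcripts or of glucocorticoid-responsive genes in the metallothionein levels was not tested. The most abundant tested genes of the 3 lists were the phosphatase gene Dusp1 at 245 ± 150.3 TPM in Chd4KO and 251 ± 93.6 TPM in Control, the peroxiredoxin reductase gene Srxn1 at 81.3 ± 49.8 and 81.9 ± 8.25 TPM (Chd4KO, then Control), and the chaperone gene Hspa8 at 504 ± 256 and 749 ± 26.5 TPM (Chd4KO, then Control).

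The importers and the wider metal network gave no call either. Of 41 other genes of zinc, copper, iron and manganese handling, 30 were tested with limma and none passed, with 3 at an unadjusted p under 0.05 (10% of the 30, beside 16.2% of all genes tested). All 3 were lower in Chd4KO, as were 1816 of the 2460 genes at that level over all genes tested. Their median change was -0.30, beside -0.25 for all genes tested, and none passed with voom. By list, 0 of 8 tested Slc39 genes passed (median -0.41), 0 of 9 copper genes (-0.26) and 0 of 11 iron and manganese genes (-0.56). The most abundant Slc39 genes were Slc39a11, a zinc transporter of the Golgi, at 33.2 ± 16.8 TPM in Chd4KO and 40.4 ± 14.1 TPM in Control, and Slc39a6, an importer of the plasma membrane, at 31.4 ± 17.7 TPM in Chd4KO and 35.3 ± 5.43 TPM in Control (limma adjusted p = 0.632 and 0.653). The ferritin chains Ftl1 and Fth1, which store iron, were at 2761 ± 1052 and 231 ± 48.97 TPM in Chd4KO and at 2137 ± 119 and 238 ± 15.7 TPM in Control. The copper chaperone Atox1 and the copper importer Slc31a1 were at 65.6 ± 7.50 and 45.7 ± 15.3 TPM in Chd4KO and at 63.0 ± 10.2 and 59.4 ± 10.3 TPM in Control. None of these 4 passed (limma adjusted p = 0.436 to 0.862).

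The importers Slc39a10 and Slc39a3 are named here after their values were seen. Slc39a10 was at 2.69, 3.07, 2.93 and 0.817 TPM in Chd4KO replicates 1 to 4, and at 6.72, 5.07, 5.87 and 4.53 TPM in Control replicates 1 to 4. Slc39a3 was at 19.1, 26.05, 21.7 and 10.3 TPM in Chd4KO and at 39.9, 33.8, 29.95 and 28.2 TPM in Control. The groups did not overlap for either. Over the 30 tested genes of the wider metal lists this held for 3 (10%), beside 14.8% of all genes tested. The change of Slc39a10 was -1.01 ± 0.28 (SE, limma adjusted p = 0.109), and it passed under 4 of 18 alternatives, with adjusted p between 0.0309 and 0.266. The change of Slc39a3 was -0.80 ± 0.28 (limma adjusted p = 0.202), and it passed under none of 19. Of the 2 other genes singled out the same way, Commd1 of copper handling had groups that did not overlap in TPM (change -0.29, adjusted p = 0.453) but overlapped with scaling by the median of ratios, at 3.98 to 5.11 in Chd4KO and 4.26 to 4.94 in Control (change -0.0565), and the mitochondrial iron importer Slc25a37 had an unadjusted p of 0.0244 and a change of -0.56 (adjusted p = 0.229).

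By mean TPM in Control, Slc30a8, Mt1 and Mt2 came first, with Slc30a8 above Mt1 in 2 of 4 libraries. They were followed by Slc30a5, Slc30a6, Slc30a9, Slc30a7, Slc30a4, Slc30a1 and Slc39a14. Of these neighbours the ranges overlapped between Slc30a8 and Mt1, Mt1 and Mt2, Slc30a9 and Slc30a7, and Slc30a4 and Slc30a1. In Chd4KO the order by mean was Mt1, Slc30a8, Mt2, Slc30a5, Slc30a6, Slc30a7, Slc30a9, Slc30a4, Slc30a1 and Slc39a14, and the ranges of every neighbouring pair overlapped.

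Genes whose pattern lay closest to that of Slc30a8 and Mt1 were found by Pearson's r of log2(TPM + 1) over the 8 libraries, among 6508 named genes with a mean of at least 10 TPM. For Slc30a8 they were Upf3b of nonsense-mediated decay (r = 0.978), Lmntd2 (0.962), the beta cell transcription factor Nkx6-1 (0.955), the TNF receptor family gene Relt (0.954) and the aromatic amino acid and thyroid hormone transporter Slc16a10 (0.953). Nkx6-1 was at 54.97 ± 9.49 TPM in Chd4KO and 96.7 ± 9.19 TPM in Control. For Mt1 they were Nsmce1, a subunit of the SMC5/6 complex (0.994), Mt2 (0.991), the stress-responsive transcription factor Cebpb (0.988), Bin3 (0.976) and Tmem189 (0.967). Cebpb was at 94.8 ± 44.5 TPM in Chd4KO and 99.7 ± 14.97 TPM in Control (SD, n = 4 each). Over 8 libraries such values describe these libraries and carry no test.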

How the data were processed

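Beta cells sorted by flow cytometry gave 4 Chd4KO and 4 Control libraries, grouped by their titles. Per the labels' protocols, low-input SMART-Seq cDNA and Nextera XT libraries were made, which do not mark strand. The authors deposited 1 table of TPM per library. The submitters' processing notes list mm10 and FastQC, Trimmomatic, HISAT2, HTSeq and DESeq2, with no role or version. No source used here names the annotation. GENCODE M21, of the same build, held 99.5% of the identifiers and gave symbols, positions and exon lengths. Promoter sequences are from RefSeq.

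Because TPM has a fixed total, a larger insulin share lowers other genes in a library. TPM times exon length came out as whole multiples of 1 step for 98.5 to 98.7% of values above 0 (tolerance 0.05 of a read), and these recovered reads gave depth and an alternative test. Each title carries its own animal number, so replicates were taken as separate mice.

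Differences were tested with limma 3.58.1 (R 4.3.3) on log2(TPM + 1), two-sided, fitting genotype alone. Fold changes on this scale understate those of low genes. Single values were compared by exact permutation of libraries. Tables were handled in pandas 2.3.3 and numpy 2.4.6 under Python 3.11.15, permutations in scipy 1.17.1 and plots in matplotlib 3.10.9. The fit was tested on simulated data that gave both groups the spread of Control libraries. The wider spread between Chd4KO libraries (median SD 0.51, against 0.18 in Control) was not simulated.

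Alternatives were a pseudocount of 0.1, no filter, a minimum of 5 TPM, 3 other scalings, a variance trend, array weights, a replicate block, voom, and leaving out each library. Leaving out Chd4KO replicates 2 and 4 together was added after the data had been seen. The genes, lists and tests were chosen with earlier results of these data known. Named are the 10 genes, the called or most abundant genes of the metal and stress lists, genes overlapping the 10, and those most like Slc30a8 and Mt1. Called genes of the cell type marker lists, Iapp, and the glucocorticoid-responsive genes other than Dusp1 are named after their values were seen. The same holds for Slc39a10, Slc39a3, Commd1, Slc25a37, Slc39a5 and Slc30a2.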

Additional observations from a re-analysis of the deposited data

Results flagged for a closer look

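Within Chd4KO, 1 library stood far from the other 3 for 2 of the 10 zinc genes by Dixon's test of the gap to the nearest library over the group's range. Both values came from Chd4KO replicate 4, the library in which insulin took 62.0% of TPM and 12702 genes reached 1 TPM. Slc30a9 was at 5.49 TPM there (gap 0.905 of the range), and Slc39a14 was at 1.19 TPM (gap 0.837 of the range). Dixon's test was run on TPM only, and replicate 4 stood less apart with scaling by the median of ratios. Slc30a9 was then at 13.4, 13.3, 16.3 and 10.2 in Chd4KO replicates 1 to 4, and Slc39a14 at 3.66, 3.42, 4.39 and 2.21. The 10 genes gave 20 groups of 4 libraries, and chance alone flags about 1 in 20 such groups.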

How the results depend on the processing

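None of the 10 zinc genes passed under 18 of 19 alternatives, and 1 (Slc30a8) passed with array weights. Of the other zinc and metal genes none passed under 15 of 19, and 1 (Slc39a10) passed with median-of-ratios scaling, quantile normalisation, array weights or without Chd4KO replicate 4, so that leaving out 1 library gave 0 to 1. The count over all genes, 451, was 220 with a minimum of 5 TPM, 723 with median-of-ratios scaling (444 higher, 279 lower), 755 with quantile normalisation, 1364 with array weights (578 higher, 786 lower), and 785 without Chd4KO replicates 2 and 4. Leaving out 1 library gave 171 (without Control replicate 4) to 829 (without Chd4KO replicate 4). The cause was not tested.

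With median-of-ratios scaling, the log2 changes turned to Mtf1 0.26, Fth1 0.22 and Srxn1 0.0719. With scaling that leaves out hormone and mitochondrial genes, the log2 changes turned to Mtf1 0.13 and Fth1 0.0906. With quantile normalisation, the log2 changes turned to Mtf1 0.22 and Fth1 0.0438. With array weights, the log2 changes turned to Slc39a14 0.0617, Slc39a11 0.11, Slc39a6 0.0551 and Fth1 0.0604. With voom on recovered reads, the log2 changes turned to Mtf1 0.10 and Fth1 0.0483. With Chd4KO replicates 2 and 4 left out, the log2 changes turned to Slc30a4 0.10, Slc39a14 0.10, Slc39a11 0.073, Slc39a6 0.25, Mtf1 0.0489, Ftl1 -0.0159 and Srxn1 0.42. Leaving out 1 library moved these across 0, with ranges of Slc30a7 -0.15 to 0.23, Fth1 -0.19 to 0.02003, Dusp1 -0.69 to 0.36, Mtf1 -0.0653 to 0.00583, Slc30a4 -0.68 to 0.0925, Slc39a14 -0.37 to 0.0583, Slc39a11 -0.68 to 0.0707, Slc39a6 -0.70 to 0.12 and Srxn1 -0.57 to 0.16. The Slc30a8 to insulin difference lay between -8.03 and -5.13 with 1 library left out.

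With the replicate number as a block, 274 genes passed and Slc30a8 had an adjusted p of 0.239 (limma). Deviations of same-numbered libraries correlated at -0.02, 0.43, 0.08 and 0.04, and 1 of 4, replicate 2, matched its own number best. The labels state no pairing. These 4 values cannot show whether same-numbered libraries shared a batch. Genes with few reads, such as Slc30a4 with 65 in a library, are limited by depth.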

Other observations

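Of the zinc genes outside the group, Slc39a5, an importer known from the intestine and the exocrine pancreas, was at 13.3 TPM in Chd4KO replicate 2. It lay between 0 and 0.125 TPM in the other Chd4KO libraries and between 0.0383 and 0.194 TPM in Control libraries. Slc30a2, a zinc loader of secretory epithelia, was at 0.596 TPM in Chd4KO replicate 2 and listed at 0 in the other 7 libraries. The 15 acinar markers summed to 39698 TPM in that library.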
